A study of Mus musculus with 8 samples.

Results

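Loss of the transcription factor NFIB alone was examined by RNA sequencing of hair follicle stem cells sorted from male mice 70 days after birth, when back skin follicles were in their second rest phase. The comparison took 2 NFIB-cKO libraries (animals 81 and 85) and 2 wild-type (WT) libraries (animals 34 and 82), 4 of the 8 libraries of the series, and every gene that passed a filter on low values. The NFIB-cKO mice carried the Cre driver Sox9-CreER with NFIBfl/fl and R26-YFPfl/fl, and the WT mice carried R26-YFPfl/fl with both NFIXfl/fl and NFIBfl/fl and no Sox9-CreER in their label. The WT label therefore lists a floxed Nfix gene that the NFIB-cKO label does not. The NFIX-cKO mice (animals 32 and 88; NFIXfl/fl and NFIBfl/+ with the same Cre and R26-YFPfl/fl) and the NFIB/X-dKO mice (animals 33 and 36; NFIXfl/fl and NFIBfl/fl with the same Cre and R26-YFPfl/fl) were used for direct comparisons and for the shared estimate of the spread. Cells of every group were sorted as negative for DAPI and Sca-1 and positive for integrin α6 and CD34. The knockout sorts added a gate on YFP, which marks cells in which Cre has acted, and the WT sorts did not, so that genotype, Cre and the YFP gate cannot be told apart in NFIB-cKO against WT.

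Nuclear factor I proteins (NFIA, NFIB, NFIC and NFIX) bind DNA as dimers at palindromes built from the motif TTGGC, and can raise or lower transcription. Hair follicle stem cells lie in the bulge, a niche below the sebaceous gland. They stay mostly quiescent while the follicle rests, and their offspring rebuild the hair in the growth phase. NFIB in these cells is known to repress endothelin signals to the pigment stem cells that share the niche, and the title of the series names NFI factors in stem cell chromatin and hair loss.

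Values are TPM, the RNA-seq unit of transcript abundance that adds up to the same total in every library. Differences are on the log2(TPM + 1) scale ± SE, where the added 1 shrinks the change of weakly expressed genes. They come from limma's moderated test over 15434 genes and all 8 libraries, and a gene is called at a Benjamini-Hochberg adjusted p under 0.05. With 2 animals a group the p-values measure the spread between these samples. In bulk RNA of this kind, fewer cells of a type and less RNA per cell cannot be told apart. The expected count total was 66854625 in NFIB-cKO 85, and the depth of NFIB-cKO 81, WT 34 and WT 82 was unknown.

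NFIB-cKO differed from WT at 111 genes, or 0.719% of those tested, with 45 higher (0.292%) and 66 lower (0.428%). The median difference over all genes tested was 0.0048. Both NFIB-cKO libraries stood above both WT libraries at 21.7% of the genes and below both at 16.6%, so separated libraries alone do not mark a gene. Among the called genes were 87 protein-coding genes, 12 miRNA genes, 6 processed pseudogenes, 1 transcribed processed pseudogene and 2 snoRNA genes. Apart from predicted, pseudogene and short RNA genes, some of which moved further, the largest falls were those of Cck, Myoc and Ltbp2 and the largest rises those of Esr1, Gpnmb, Atp12a, Piezo2, Mest and Tnc. Leaving out NFIB-cKO 81 brought the count of 111 to 11, and leaving out NFIB-cKO 85 brought it to 12. It was 38 when WT 34 was dropped, and 37 or 34 when NFIB/X-dKO 33 or 36 was. Of 64 called genes named here, 48 of the 58 that gave a value lost their call without NFIB-cKO 81, and likewise 48 of 58 without NFIB-cKO 85. Dropping WT 34 ended 33 of 64 calls and dropping WT 82 ended 17, while dropping NFIB/X-dKO 33 or 36 ended 31 or 33.

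**Figure D1:**
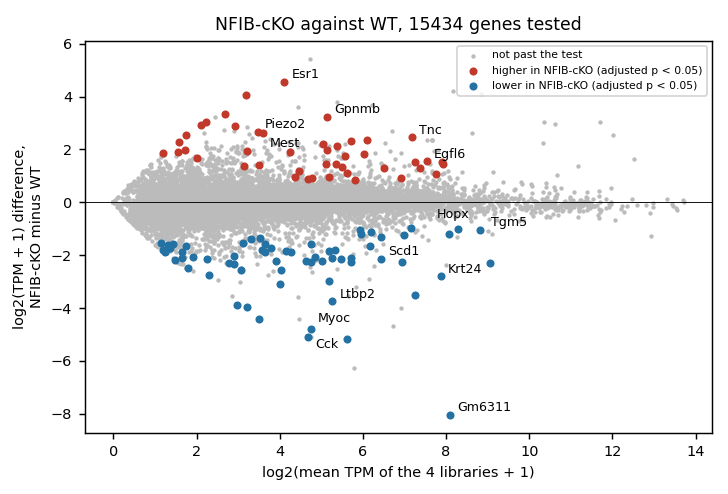
Difference between NFIB-cKO and WT on the log2(TPM + 1) scale (vertical axis) against the log2 of the mean TPM of the 4 libraries plus 1 (horizontal axis), 1 point per gene tested. Red points are the 45 genes called higher, blue points the 66 called lower, and grey points did not pass the test; Gm6311 is the lowest point, at -8.03.

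Both NFIB-cKO animals carry numbers in the 80s, so the comparison was repeated with WT 82 as the only WT library. This fit takes its spread from the NFIB-cKO and NFIB/X-dKO pairs alone. It called 45 genes (0.292%), 15 higher (0.0972%) and 30 lower (0.194%), and its median over all genes was 0.1147. Of the 111 genes called against both WT libraries, 34 passed again, 12 higher and 22 lower, and all 111 kept their sign. The NFIB-cKO libraries are the same in both fits, so this sign count is no independent check.

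**Figure D2:**
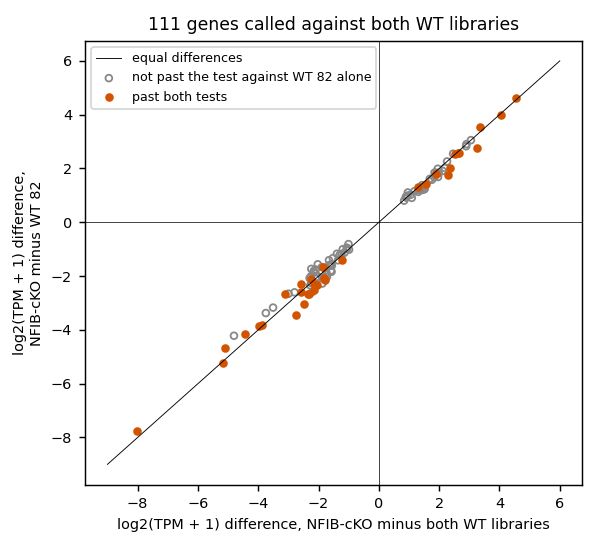
The 111 genes called against both WT libraries, with the log2(TPM + 1) difference from both WT libraries on the horizontal axis and the difference from WT 82 alone on the vertical axis. Filled points are the 34 genes that passed both tests, open points those that did not pass against WT 82, and the line marks equal differences.

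The targeted gene did not differ in total. Nfib (chromosome 4, 82290173 to 82705750, GRCm38) read 293 and 233 TPM in NFIB-cKO 81 and 85, against 230 and 209 TPM in WT 34 and 82, a difference of 0.25 ± 0.18 (adjusted p = 0.649). Which exons Cre removes is not in the labels, and any exon left in place still adds reads, so this total checks no label. Nfix (-0.06 ± 0.13, adjusted p = 0.904), Nfia (0.13 ± 0.18, adjusted p = 0.853) and Nfic (-0.11 ± 0.21, adjusted p = 0.896) did not pass either. Esr1, the oestrogen receptor gene, read 31.8 and 32.4 TPM in NFIB-cKO and 0.47 and 0.33 TPM in WT. In the other groups with the same Cre it read 15.05 and 26.14 TPM (NFIX-cKO) and 12.55 and 19.92 TPM (NFIB/X-dKO). By limma neither group differed from NFIB-cKO at Esr1 (adjusted p = 0.446 and 0.267). CreER holds part of that receptor, and reads from the transgene and from the mouse's own gene were not told apart.

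Of the genes that define the bulge, Krt24 and Hopx fell. Krt24 (chromosome 11, 99279959 to 99285262), a keratin of bulge stem cells, read 46.0 and 71.1 TPM in NFIB-cKO 81 and 85, against 460.2 and 353 TPM in WT 34 and 82. The groups lay far apart, with the lowest WT library at several times the highest NFIB-cKO library, and the difference was -2.80 ± 0.22 (adjusted p = 0.00505). Hopx, a homeodomain protein that marks quiescent stem cells, read 195 and 219 TPM in NFIB-cKO and 477 and 363 TPM in WT (-1.01 ± 0.16, adjusted p = 0.0487). These were the 2 called genes of 29 tested for bulge identity, where the list's median was -0.01. Among all genes tested, 0.428% were called lower. Lgr5, a receptor that amplifies Wnt signals, read 75.7 and 49.2 TPM in NFIB-cKO against 121 and 129 TPM in WT and did not pass (-1.02 ± 0.20, adjusted p = 0.0898). Nor did the transcription factor Lhx2, at 182 and 189 TPM in NFIB-cKO and 291 and 314 TPM in WT (-0.70 ± 0.15, adjusted p = 0.102). Cd34, on which the cells were sorted, read 1024 and 811 TPM in NFIB-cKO and 1144 and 929 TPM in WT, and Krt15 read 13202 and 8967 TPM in NFIB-cKO and 13164 and 11904 TPM in WT, so the groups overlapped for both. Sox9, whose promoter drives the Cre, stood at 182 and 199 TPM in NFIB-cKO and 143 and 144 TPM in WT (0.41 ± 0.31, adjusted p = 0.674). Krt24 passed with NFIB-cKO 81 or 85 left out (adjusted p = 0.0287 without 81 and 0.0117 without 85) and missed the threshold against WT 82 alone (-2.60, adjusted p = 0.0674). The call of Hopx ended without NFIB-cKO 81 (adjusted p = 0.204), without NFIB-cKO 85 (0.215), without WT 34 (0.13), without each NFIX-cKO and NFIB/X-dKO library (up to 0.125) and against WT 82 alone (0.109).

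The 250 bases before the RefSeq start of Krt24 and of 4 further genes described below are given to show where the NFI motif lies. The 4 were the 2 largest falls and 2 largest rises among genes with an entry that also passed against WT 82 alone, leaving out Esr1 and Piezo2. Capitals mark TTGGC on the strand of the gene or, as GCCAA, on the other strand. The sequences are from RefSeq on GRCm38.p6, written 5′ to 3′ on the strand of the gene, and Krt24 was chosen after its values were seen.
Krt24 (chr11:99285263-99285512, minus strand): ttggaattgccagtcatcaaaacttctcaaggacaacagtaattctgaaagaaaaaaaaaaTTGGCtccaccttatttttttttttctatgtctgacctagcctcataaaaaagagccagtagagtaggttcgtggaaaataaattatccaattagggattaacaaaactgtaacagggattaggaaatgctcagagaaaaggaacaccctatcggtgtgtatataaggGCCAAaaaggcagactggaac
Cck (chr9:121495695-121495944, minus strand): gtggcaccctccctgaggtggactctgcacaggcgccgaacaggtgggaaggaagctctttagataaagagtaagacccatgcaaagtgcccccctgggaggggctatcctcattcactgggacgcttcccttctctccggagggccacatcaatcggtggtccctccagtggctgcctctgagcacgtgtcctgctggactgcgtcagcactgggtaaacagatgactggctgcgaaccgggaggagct
Slc43a1 (chr2:84840073-84840322, plus strand): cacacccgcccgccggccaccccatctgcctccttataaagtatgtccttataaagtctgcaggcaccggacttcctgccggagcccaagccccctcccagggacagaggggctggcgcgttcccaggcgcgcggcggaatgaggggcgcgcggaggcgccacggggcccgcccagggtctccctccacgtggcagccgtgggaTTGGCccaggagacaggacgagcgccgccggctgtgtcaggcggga
Gpnmb (chr6:49036268-49036517, plus strand): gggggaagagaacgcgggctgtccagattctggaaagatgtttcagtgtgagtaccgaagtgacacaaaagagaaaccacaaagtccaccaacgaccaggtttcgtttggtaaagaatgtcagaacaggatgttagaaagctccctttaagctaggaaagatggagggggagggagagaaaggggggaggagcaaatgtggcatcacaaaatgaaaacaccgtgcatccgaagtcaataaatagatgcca
Mest (chr6:30733256-30733505, plus strand): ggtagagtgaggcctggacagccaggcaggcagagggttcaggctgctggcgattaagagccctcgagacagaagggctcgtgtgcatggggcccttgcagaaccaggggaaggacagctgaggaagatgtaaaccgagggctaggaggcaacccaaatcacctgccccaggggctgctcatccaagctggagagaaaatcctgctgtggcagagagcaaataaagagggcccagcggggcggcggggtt
Krt24 holds the motif at 2 places, which begin 189 and 21 bases before the start, Slc43a1 holds it at 1, and Cck, Gpnmb and Mest hold it at 0 in these windows. Mest has 3 entries in the table, of which the first is shown. On either strand TTGGC occurred in 51.4% of the 37 promoters of genes called lower and in 31.0% of the 29 of genes called higher, against 45.9% of the 9925 promoters of tested genes and 41.5% of all 32851 promoters. The palindrome, TTGGC and GCCAA separated by 5 bases, occurred in 0.0365% of all promoters and in 0 of the promoters of called genes. These are matches of letters and were not tested as binding sites.

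Several secreted proteins and receptors were among the other falls. Cck (chromosome 9, 121489824 to 121495694) encodes the peptide hormone cholecystokinin. It read 0.27 and 0.55 TPM in NFIB-cKO 81 and 85, against 63.2 and 35.2 TPM in WT 34 and 82, and was nearly silent in NFIB-cKO, with 15 expected reads in NFIB-cKO 85 (-5.10 ± 0.42, adjusted p = 0.00505). Myoc, the secreted glycoprotein myocilin, read 1.27 and 0.29 TPM in NFIB-cKO and 70.8 and 30.9 TPM in WT (-4.80 ± 0.55, adjusted p = 0.0178). Ltbp2, a matrix protein related to the binding proteins of latent TGF-β, read 3.76 and 4.62 TPM in NFIB-cKO and 89.0 and 52.6 TPM in WT (-3.75 ± 0.30, adjusted p = 0.00505). For all 3 genes the WT libraries differed from each other by a large amount, with WT 34 the higher, and still lay far above both NFIB-cKO libraries.

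Rarres1, a membrane protein first described as induced by retinoids, read 3.81 and 3.57 TPM in NFIB-cKO and 26.5 and 27.4 TPM in WT (-2.57 ± 0.18, adjusted p = 0.00329). Lgr6, a receptor for R-spondins and a marker of stem cells above the bulge, read 7.27 and 8.03 TPM in NFIB-cKO and 43.2 and 36.6 TPM in WT (-2.24 ± 0.29, adjusted p = 0.0259). It was the 1 called gene among 38 of Wnt signalling, whose median was 0.08. Ltbp2 was likewise the 1 called gene among 38 of BMP and TGF-β signalling, whose median was 0.10. Of all genes tested, 0.428% were called lower. Grem1, a secreted BMP inhibitor, read 109 and 84.98 TPM in NFIB-cKO against 301 and 183 TPM in WT and did not pass (-1.27 ± 0.24, adjusted p = 0.0815). The serpins Serpina3b (8.51 and 11.98 TPM in NFIB-cKO, 38.3 and 65.8 TPM in WT) and Serpina9 (0.56 and 0.83 TPM in NFIB-cKO, 8.59 and 4.92 TPM in WT) fell by 2.21 and 2.16, and Rnase2b, a secreted ribonuclease (0.21 and 0.13 TPM in NFIB-cKO, 3.87 and 11.6 TPM in WT), fell by 2.74. Of Cck, Myoc, Ltbp2, Rarres1, Lgr6, Serpina3b, Serpina9 and Rnase2b, 0 of 8 passed when NFIB-cKO 81 was left out (adjusted p from 0.0501 to 0.172) and 0 of 8 when NFIB-cKO 85 was (0.0551 to 0.255). Without WT 34, 4 of 8 passed, and without WT 82, 6 of 8 did.

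Genes of transport and metabolism were also among the falls. Slc43a1, a carrier of large neutral amino acids (chromosome 2, 84838850 to 84863594), read 2.04 and 2.34 TPM in NFIB-cKO, against 36.5 and 18.99 TPM in WT (-3.10 ± 0.29, adjusted p = 0.0093), and passed against WT 82 alone (-2.65, adjusted p = 0.0264). It was the 1 called gene among 20 amino acid carriers, whose median was -0.02, where 0.428% of all genes tested were called lower. Sardh, the mitochondrial sarcosine dehydrogenase, read 9.93 and 4.68 TPM in NFIB-cKO and 78.5 and 48.7 TPM in WT (-3.00 ± 0.42, adjusted p = 0.0332). Cyp4b1, a cytochrome P450, read 36.1 and 43.5 TPM in NFIB-cKO and 272 and 134 TPM in WT (-2.24 ± 0.30, adjusted p = 0.029). Crabp1, which carries retinoic acid in the cell, read 4.35 and 4.23 TPM in NFIB-cKO and 23.5 and 24.3 TPM in WT (-2.24 ± 0.29, adjusted p = 0.0254). Ces1d, a carboxylesterase, fell by 2.31 (1.15 and 1.38 TPM in NFIB-cKO, 7.80 and 13.2 TPM in WT), and Ngef, an exchange factor for small GTPases, fell by 2.58 (1.26 and 1.52 TPM in NFIB-cKO, 16.2 and 10.8 TPM in WT). None of the 6 genes Slc43a1, Sardh, Ngef, Ces1d, Cyp4b1 and Crabp1 passed without NFIB-cKO 81 or without NFIB-cKO 85, and the highest adjusted p was 0.199.

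Of 43 tested genes of sebaceous and fatty acid lipid, 6 fell in NFIB-cKO and 0 rose, 37 had a negative difference, 31 had both NFIB-cKO libraries below both WT libraries, and the median was -0.72. Of all genes tested, 0.428% were called lower, 7576 of 15434 had a negative difference and 16.6% lay below WT without overlap. Scd1, the stearoyl-CoA desaturase that makes oleic and palmitoleic acid, read 26.5 and 33.7 TPM in NFIB-cKO 81 and 85, against 103 and 178 TPM in WT 34 and 82 (-2.14 ± 0.27, adjusted p = 0.0229). Mgll, which releases fatty acids from monoglycerides, read 10.1 and 9.97 TPM in NFIB-cKO and 37.1 and 53.8 TPM in WT (-2.05 ± 0.22, adjusted p = 0.0156). Elovl6, a fatty acid elongase, read 14.1 and 11.0 TPM in NFIB-cKO and 39.7 and 38.6 TPM in WT (-1.58 ± 0.18, adjusted p = 0.0178). Acsbg1, an acyl-CoA synthetase (-1.80), Far2, which reduces fatty acyl-CoA to wax alcohols (-1.83), and Cidea, a lipid droplet protein (-1.87), were the other called members. Against WT 82 alone 4 members of the list were called, and the median was -0.55.

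Markers of sebocytes, the cells of the sebaceous gland, moved in the same direction. Their summed level was 12.7 and 14.9 TPM in NFIB-cKO 81 and 85, against 40.2 and 85.4 TPM in WT 34 and 82, and all 5 tested markers were lower without overlap, of which Cidea, a member of both lists, was called. The share lower without overlap was 16.6% over all genes tested. The marker list and the lipid list share Cidea, Mc5r and Plin5 at least, so the shared direction is no independent observation. Mc5r, a melanocortin receptor of sebocytes, read 0.11 and 0.13 TPM in NFIB-cKO and 0.82 and 0.58 TPM in WT, and the wax synthases Awat1 (1.70 and 1.82 TPM in NFIB-cKO, 4.80 and 13.6 TPM in WT) and Awat2 (2.12 and 2.03 TPM in NFIB-cKO, 3.75 and 7.38 TPM in WT) were higher in each WT library. The part of sebocyte RNA in the lower lipid genes was not tested. The 6 calls of the lipid list ended without NFIB-cKO 81 (adjusted p from 0.0991 to 0.188) and without NFIB-cKO 85 (0.125 to 0.247), and under scaling by median-of-ratios factors 2 of 6 passed.

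Of 25 tested genes of cholesterol synthesis and sterol control, 23 had a negative difference, against 7576 of all 15434 genes tested, and the list's median was -0.40. Insig1, a sterol sensor, read 21.9 and 31.1 TPM in NFIB-cKO against 63.6 and 68.0 TPM in WT and did not pass (-1.30 ± 0.23, adjusted p = 0.0732), nor did the isoprenoid enzyme Idi1, at 33.8 and 39.8 TPM in NFIB-cKO and 65.3 and 80.2 TPM in WT (-0.96 ± 0.20, adjusted p = 0.101). Among 29 genes of the epidermal barrier, Elovl4, which makes very long fatty acids for skin ceramides, read 19.9 and 17.5 TPM in NFIB-cKO and 69.8 and 98.2 TPM in WT (-2.09 ± 0.19, adjusted p = 0.0085). Tgm5, a transglutaminase of the cornified envelope, read 330 and 256 TPM in NFIB-cKO and 626 and 580 TPM in WT (-1.05 ± 0.15, adjusted p = 0.037). These were the 2 called members, where 0.428% of all genes tested were called lower, and the list's median was -0.61, or -0.24 against WT 82 alone. Markers of the interfollicular epidermis summed to 998 and 1109 TPM in NFIB-cKO, against 2069 and 1417 TPM in WT, with 8 of 8 negative, 0 called by limma and 0 at an unadjusted p under 0.05, and their part in the epidermal values was not tested. Both calls ended without NFIB-cKO 81 (adjusted p of at least 0.0841) and without NFIB-cKO 85 (at least 0.0955).

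**Figure D3:**
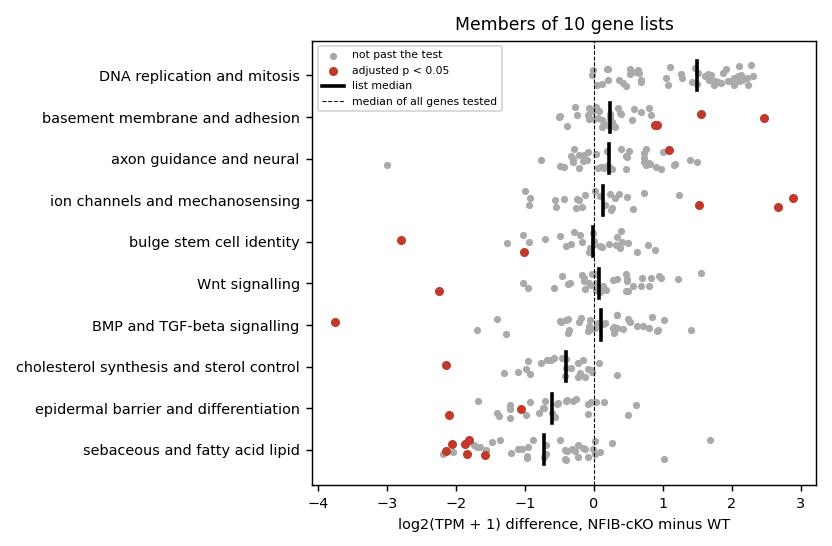
Log2(TPM + 1) difference between NFIB-cKO and WT (horizontal axis) for the tested members of 10 gene lists (rows). Red points passed the test and grey points did not, black bars are list medians and the dashed line is the median of all genes tested; the lipid list lies to the left, at a median of -0.72, and the DNA replication and mitosis list to the right, at 1.50 with 0 genes called.

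Of 37 tested genes of basement membrane and adhesion, 4 rose and 0 fell, while Ltbp2, a matrix gene outside that list, fell. The share called higher was 0.292% over all genes tested. Tnc, the matrix glycoprotein tenascin C (chromosome 4, 63959785 to 64047015), read 282 and 209 TPM in NFIB-cKO 81 and 85, against 45.9 and 40.7 TPM in WT 34 and 82 (2.46 ± 0.28, adjusted p = 0.0178). Egfl6, which upper bulge cells lay down in the basement membrane, read 291 and 259.9 TPM in NFIB-cKO and 85.6 and 101 TPM in WT (1.56 ± 0.13, adjusted p = 0.00554). The type IV collagen chains Col4a5 (37.5 and 32.5 TPM in NFIB-cKO, 18.2 and 17.99 TPM in WT) and Col4a6 (34.4 and 29.8 TPM in NFIB-cKO, 17.4 and 16.2 TPM in WT) rose by 0.91 and 0.89. Over the 37 genes 28 differences were positive, against 7855 of all 15434 genes tested, and the median was 0.23.

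Col1a1, a chain of type I collagen, read 77.3 and 55.1 TPM in NFIB-cKO and 12.2 and 16.7 TPM in WT (2.12 ± 0.30, adjusted p = 0.0339). Its partner chain Col1a2 read 9.22 and 3.26 TPM in NFIB-cKO and 11.8 and 8.01 TPM in WT, and 7 of 12 fibroblast and dermal papilla markers stayed under 1 TPM in all 4 libraries. Their sum was 305 and 275 TPM in NFIB-cKO and 303 and 261 TPM in WT. That sum includes Col1a1 itself, so it is no check on the Col1a1 rise. Of the 5 tested members, 2 had a positive and 3 a negative difference. Timp3, an inhibitor of matrix proteases, read 81.7 and 64.0 TPM in NFIB-cKO and 18.2 and 23.5 TPM in WT (1.76 ± 0.19, adjusted p = 0.0152). The adhesion molecule Mcam read 11.3 and 16.5 TPM in NFIB-cKO and 2.88 and 2.69 TPM in WT (1.96 ± 0.21, adjusted p = 0.0152). Of the 7 genes from Tnc to Mcam, 0 passed without NFIB-cKO 81 (adjusted p from 0.0646 to 0.224) and 0 without NFIB-cKO 85 (0.0707 to 0.208). Without WT 34, 1 passed (Egfl6), and without WT 82, 3 did.

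Of 26 tested channel genes 3 rose, as did 1 of 43 in axon guidance, where 0.292% of all genes tested were called higher. Piezo2, a mechanically gated ion channel known from touch neurons and Merkel cells, read 15.8 and 20.5 TPM in NFIB-cKO, against 1.79 and 2.18 TPM in WT (2.67 ± 0.19, adjusted p = 0.00329). The 6 Merkel cell markers were under 1 TPM in all 4 libraries, with a sum of at most 0.08 TPM. Piezo2 passed against WT 82 alone (2.58, adjusted p = 0.0446) and with any 1 of the 8 libraries left out. Atp12a, the proton pump of non-gastric epithelia, read 10.8 and 13.7 TPM in NFIB-cKO and 0.70 and 0.86 TPM in WT (2.89 ± 0.38, adjusted p = 0.0267). Gja1, the gap junction protein connexin 43, read 303 and 406 TPM in NFIB-cKO and 99.8 and 149 TPM in WT (1.52 ± 0.22, adjusted p = 0.0362). These were the 3 called of 26 channel genes, all higher, and the list's median was 0.13, or -0.05 against WT 82 alone.

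Epha4, a receptor for ephrins, read 68.5 and 63.5 TPM in NFIB-cKO and 26.6 and 34.7 TPM in WT (1.09 ± 0.16, adjusted p = 0.0391) and was the 1 called gene of 43 in axon guidance, whose median was 0.22. Robo2, a receptor for Slit, read 24.9 and 31.6 TPM in NFIB-cKO and 10.5 and 13.7 TPM in WT and did not pass (1.16 ± 0.20, adjusted p = 0.07). Gap43, a protein of growing axons, read 3.10 and 1.98 TPM in NFIB-cKO and 0.18 and 0.31 TPM in WT and did not pass either (1.49 ± 0.25, adjusted p = 0.0619). Outside the lists, Dpysl3, which binds the cytoskeleton in growing neurites, read 26.6 and 31.1 TPM in NFIB-cKO and 6.45 and 7.63 TPM in WT (1.89 ± 0.17, adjusted p = 0.00716). Sphkap, an anchor for protein kinase A, read 63.4 and 42.9 TPM in NFIB-cKO and 9.38 and 12.1 TPM in WT (2.19 ± 0.21, adjusted p = 0.0112). Of Piezo2, Atp12a, Gja1, Epha4, Dpysl3 and Sphkap, 1 passed without NFIB-cKO 81 (Piezo2; the highest adjusted p was 0.187) and 2 without NFIB-cKO 85 (Piezo2 and Sphkap; 0.23).

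Growth and niche genes were among the other rises. Mest, an imprinted gene of the mesoderm (chromosome 6, 30723547 to 30748465), read 18.1 and 21.6 TPM in NFIB-cKO 81 and 85, against 2.17 and 2.52 TPM in WT 34 and 82 (2.64 ± 0.17, adjusted p = 0.0022). Mest was the 1 called gene of 17 imprinted ones, where 0.292% of all genes tested were called higher. Like Piezo2, it passed under all alternatives tried, at adjusted p values up to 0.0457. Gpnmb, a glycoprotein of melanosomes that other cells also make (chromosome 6, 49036546 to 49070929), read 65.4 and 59.8 TPM in NFIB-cKO and 3.86 and 8.27 TPM in WT (3.24 ± 0.43, adjusted p = 0.0282). The pigment cell markers summed to 114 and 86.6 TPM in NFIB-cKO and 68.5 and 87.4 TPM in WT, with 7 of 7 tested members positive, 0 called by limma and 4 at an unadjusted p under 0.05. Among them Dct read 15.8 and 14.4 TPM in NFIB-cKO and 5.76 and 11.2 TPM in WT, and Pmel 8.28 and 7.98 TPM in NFIB-cKO and 1.75 and 5.75 TPM in WT. The part of pigment cell RNA in the Gpnmb value was not tested. Edn2, the endothelin that signals to pigment stem cells, read 20.3 and 33.3 TPM in NFIB-cKO and 3.93 and 11.6 TPM in WT, without overlap, and did not pass (1.77 ± 0.43, adjusted p = 0.133).

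Pdgfc, a growth factor of the platelet-derived family, read 49.9 and 60.3 TPM in NFIB-cKO and 10.8 and 16.4 TPM in WT (1.96 ± 0.21, adjusted p = 0.0152). Tnfrsf11b, the decoy receptor osteoprotegerin, read 110 and 91.5 TPM in NFIB-cKO and 24.4 and 30.8 TPM in WT (1.84 ± 0.19, adjusted p = 0.0134). Gpx2, a glutathione peroxidase of epithelia, read 125 and 103 TPM in NFIB-cKO and 16.4 and 26.9 TPM in WT (2.37 ± 0.22, adjusted p = 0.00942). Hmga2, a chromatin protein of growing tissues, read 12.8 and 10.6 TPM in NFIB-cKO and 3.36 and 4.52 TPM in WT (1.37 ± 0.19, adjusted p = 0.0325). Lmcd1, a cofactor with LIM domains, read 81.8 and 87.6 TPM in NFIB-cKO and 11.0 and 24.0 TPM in WT (2.31 ± 0.31, adjusted p = 0.029). With NFIB-cKO 81 left out, Mest alone passed among Mest, Gpnmb, Pdgfc, Tnfrsf11b, Gpx2, Lmcd1 and Hmga2 (highest adjusted p 0.157), and the same held with NFIB-cKO 85 left out (0.208).

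Genes of DNA replication and mitosis stood above WT for the most part, and none passed the test. Of 49 tested, 47 were positive, 41 had both NFIB-cKO libraries above both WT libraries and the median was 1.50. Over all genes tested, 7855 of 15434 were positive and 21.7% had both NFIB-cKO libraries above both WT libraries. By limma's adjusted p 0 were called, and 36 had an unadjusted p under 0.05, against 1952 of all 15434 genes. Uhrf1, which helps copy DNA methylation, came nearest, at 18.8 and 21.6 TPM in NFIB-cKO and 8.74 and 9.85 TPM in WT (1.04 ± 0.16, adjusted p = 0.0508). Pbk, a mitotic kinase, read 13.3 and 26.5 TPM in NFIB-cKO and 2.03 and 4.28 TPM in WT (2.31 ± 0.42, adjusted p = 0.0758), and Racgap1, which acts in cytokinesis, read 12.5 and 27.0 TPM in NFIB-cKO and 3.61 and 4.41 TPM in WT (1.96 ± 0.36, adjusted p = 0.0785). NFIB-cKO 85 was the higher NFIB-cKO library for each of these 3, and the list's summed level was 790 and 1301 TPM in NFIB-cKO 81 and 85, against 511 and 575 TPM in WT 34 and 82. Without NFIB-cKO 85 the list's median was 0.96.

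By limma 0 genes were called in the lists of FGF and IGF signalling (24 tested, 10 at an unadjusted p under 0.05, median -0.26), Notch and hedgehog signalling (21 tested, 2, median -0.02), interferon and antigen presentation (28 tested, 11, median 0.40) and immediate early and heat shock genes (30 tested, 2, median -0.18). Over all genes tested, 1952 of 15434 had an unadjusted p under 0.05 and 0.719% were called. Some highly expressed genes did not pass in spite of separated libraries. Cxcl14, a chemokine made by keratinocytes, read 8871 and 8446 TPM in NFIB-cKO and 1978 and 4000.0 TPM in WT (1.62 ± 0.31, adjusted p = 0.0862). Krt17 read 2732 and 3972 TPM in NFIB-cKO and 1066 and 1515 TPM in WT (1.37 ± 0.25, adjusted p = 0.0745). Fstl1, a secreted protein that binds BMPs, read 132 and 119.9 TPM in NFIB-cKO and 45.0 and 49.3 TPM in WT (1.40 ± 0.24, adjusted p = 0.0656). The skin chemokine Ccl27a did pass, at 155 and 164 TPM in NFIB-cKO and 323 and 423 TPM in WT (-1.21 ± 0.15, adjusted p = 0.0213), and again against WT 82 alone (adjusted p = 0.0328). Its call ended in 6 of 15 alternatives, at adjusted p values up to 0.159, including without NFIB-cKO 81 or 85, without either NFIB/X-dKO library and with median-of-ratios scaling. It was the 1 called gene of 21 chemokines and cytokines, whose median was 0.26. The share called lower was 0.428% over all genes tested. The predicted gene Gm13306, on the same chromosome 4, read 213 and 148 TPM in NFIB-cKO and 1020 and 753 TPM in WT (-2.30 ± 0.22, adjusted p = 0.0093), and reads shared between copies of a gene would make such values uncertain.

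**Figure D4:**
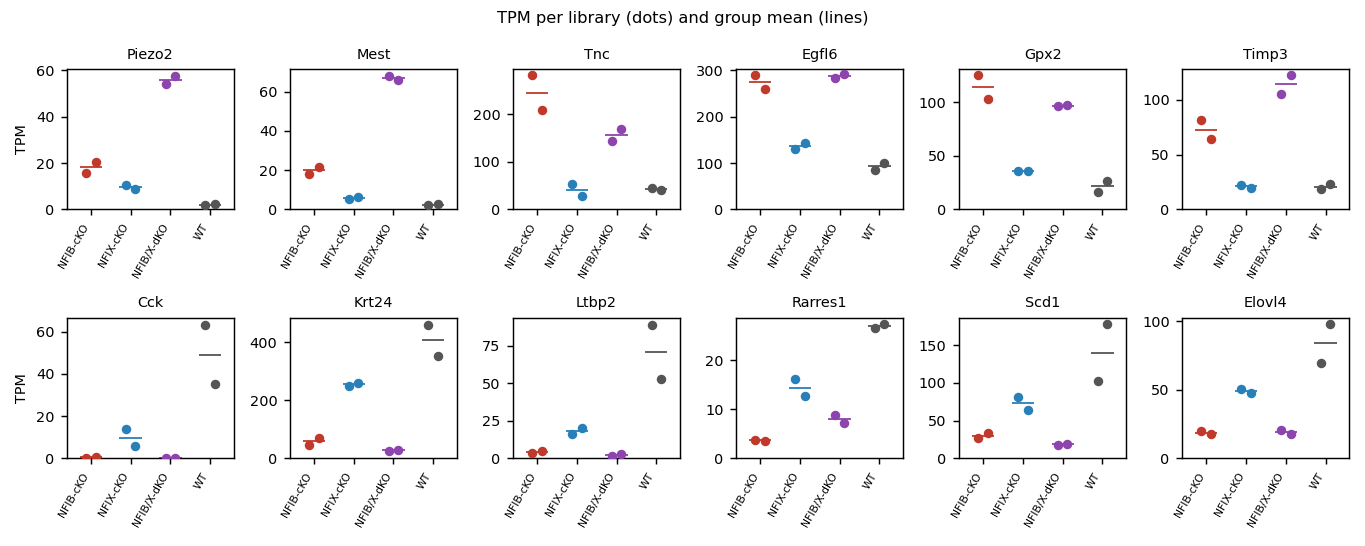
TPM in each library (dots) and group mean (lines) for 12 genes, with NFIB-cKO, NFIX-cKO, NFIB/X-dKO and WT from left to right and each vertical axis starting at 0. In the 6 genes of the upper row both NFIB-cKO libraries stand above both WT libraries, and in the 6 of the lower row both stand below.

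Some genes passed against WT 82 alone and not against both WT libraries. Ramp3, which modifies the calcitonin family of receptors, read 62.3 and 65.5 TPM in NFIB-cKO and 15.1 TPM in WT 82 (2.01, adjusted p = 0.0264), but 22.3 TPM in WT 34 and an adjusted p of 0.0724 against both. Plekha6 read 11.6 and 11.6 TPM in NFIB-cKO and 2.70 TPM in WT 82 (1.76, adjusted p = 0.0484). Serpinb6e read 0.64 and 1.03 TPM in NFIB-cKO against 12.9 TPM in WT 82 and 1.52 TPM in WT 34, so that call rests on 1 WT library. Hamp2 was listed at 0.00 TPM in both NFIB-cKO libraries and at 6.02 TPM in WT 82 (adjusted p = 0.0327). Genes called both ways included Gabarapl1, an autophagy protein (132 and 127 TPM in NFIB-cKO, 52.3 and 51.1 TPM in WT, 1.31 ± 0.14), Aadac, an esterase (4.30 and 4.10 TPM in NFIB-cKO, 13.2 and 21.9 TPM in WT, -1.80 ± 0.27), and Dpy19l1, a glycosyltransferase (15.6 and 13.95 TPM in NFIB-cKO, 62.9 and 48.5 TPM in WT, -1.84 ± 0.25). Their calls against both WT libraries ended in 6, 10 and 7 of 15 alternatives, in that order, including without NFIB-cKO 81 or 85.

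Most genes called against WT moved the same way in the other knockouts. Apart from predicted, pseudogene and short RNA genes, 44 of 46 falls had a mean in NFIX-cKO below WT, and 34 of 37 rises a mean above. In NFIB/X-dKO the same held for 45 of 46 falls and 37 of 37 rises. These counts use the same WT libraries as the calls. The knockout groups also share the Cre and the YFP gate that WT lacks, and NFIX-cKO carries NFIBfl/+. The counts are therefore no independent check. Direct tests showed where NFIB-cKO differed from the other knockouts. Against NFIX-cKO 19 genes were called (0.123%), 9 higher (0.0583%) and 10 lower (0.0648%), and 12 genes passed in the same direction against WT and against NFIX-cKO. Apart from predicted, pseudogene and short RNA genes these were 7, with Krt24, Rarres1 and Cyp4b1 lower and Mest, Smtn, Timp3 and Tnc higher in NFIB-cKO. Krt24 read 46.0 and 71.1 TPM in NFIB-cKO and 248 and 261 TPM in NFIX-cKO 32 and 88 (-2.13 ± 0.22, adjusted p = 0.0294). Tnc read 282 and 209 TPM in NFIB-cKO and 52.6 and 29.1 TPM in NFIX-cKO (2.60 ± 0.28, adjusted p = 0.0299). Cyp4b1 read 36.1 and 43.5 TPM in NFIB-cKO and 235 and 233 TPM in NFIX-cKO (-2.53 ± 0.30, adjusted p = 0.0466). Smtn, the cytoskeletal protein smoothelin, read 151 and 166 TPM in NFIB-cKO and 53.2 and 49.5 TPM in NFIX-cKO (1.61 ± 0.13, adjusted p = 0.00899), and it also passed against WT, at 85.6 and 80.4 TPM (0.92 ± 0.13, adjusted p = 0.0375). The call of Smtn against WT ended in 10 of 15 alternatives, including without NFIB-cKO 81 or 85, with median-of-ratios scaling and with the libraries of these 2 groups alone. The count of 19 was 8 or 2 when NFIB-cKO 81 or 85 was dropped, 38 without NFIX-cKO 88, 31 or 30 when WT 34 or 82 was dropped and 10 without either NFIB/X-dKO library. The balance of directions was not stable, with 16 higher and 4 lower without NFIX-cKO 32 and 2 higher and 11 lower with the 4 libraries of these groups alone.

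Against NFIB/X-dKO 35 genes were called (0.227%), 11 higher (0.0713%) and 24 lower (0.156%). Both NFIB-cKO animals are in the 80s and both NFIB/X-dKO animals in the 30s, so the contrast also holds any difference between the series. With series as a covariate, which WT and NFIX-cKO allow because each holds 1 animal of each series, 22 genes passed, of which 16 were among the 35. Mest and Piezo2 stood between WT and NFIB/X-dKO. In NFIX-cKO 32 and 88, which also lay between, Mest read 5.31 and 6.45 TPM and Piezo2 10.66 and 8.58 TPM. Mest read 18.1 and 21.6 TPM in NFIB-cKO and 68.1 and 66.1 TPM in NFIB/X-dKO (-1.71 ± 0.17, adjusted p = 0.0138), and Piezo2 15.8 and 20.5 TPM in NFIB-cKO and 54.1 and 57.7 TPM in NFIB/X-dKO (-1.58 ± 0.19, adjusted p = 0.0357). The count of 35 was 12 or 8 when NFIB-cKO 81 or 85 was dropped, 10 or 9 when NFIB/X-dKO 33 or 36 was, and 74 when either NFIX-cKO library was. Tgm5 was lower still in NFIB/X-dKO, at 330 and 256 TPM in NFIB-cKO and 105 and 112 TPM in NFIB/X-dKO (1.42 ± 0.15, adjusted p = 0.0202), as was Gm13306. Cck, by comparison, read 0.27 and 0.55 TPM in NFIB-cKO and 0.30 and 0.37 TPM in NFIB/X-dKO (0.07 ± 0.42, adjusted p = 0.922), with 13.97 and 5.73 TPM in NFIX-cKO.

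A small group of 7 genes was low in NFIB-cKO and yet high in NFIB/X-dKO, which also lacks NFIB. Gm6311, a processed pseudogene (chromosome 13, 75954136 to 75955013), read 0.90 and 1.18 TPM in NFIB-cKO 81 and 85, against 640.4 and 443 TPM in WT 34 and 82 (-8.03 ± 0.32, adjusted p = 0.000506). In the other knockouts it read 0.94 and 0.00 TPM in NFIX-cKO and 645 and 618 TPM in NFIB/X-dKO. The processed pseudogenes Gm15487, Gm13443, Gm9825 and Gm14292 and the transcribed one Rps2-ps10, on chromosomes 6, 2, 6, 2 and 18, followed the same pattern. Pseudogenes can share reads with their parent genes, and these totals are uncertain for that reason. The remaining gene is protein coding: Pde9a, a phosphodiesterase of cyclic GMP on chromosome 17, read 0.11 and 0.27 TPM in NFIB-cKO, 0.18 and 0.07 TPM in NFIX-cKO, 4.81 and 6.27 TPM in NFIB/X-dKO and 4.14 and 4.06 TPM in WT (-2.10 ± 0.22 against WT, adjusted p = 0.0151). Without NFIB-cKO 81, NFIB-cKO 85 or WT 34, 5 of the 7 still passed against WT, and Pde9a and Rps2-ps10 did not (adjusted p up to 0.109 and 0.12). None of the 7 passed between NFIB-cKO and NFIX-cKO. The labels of WT and NFIB/X-dKO list both NFIBfl/fl and NFIXfl/fl and those of the single knockouts do not, and the part of strain background in these values was not tested.

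**Figure D5:**
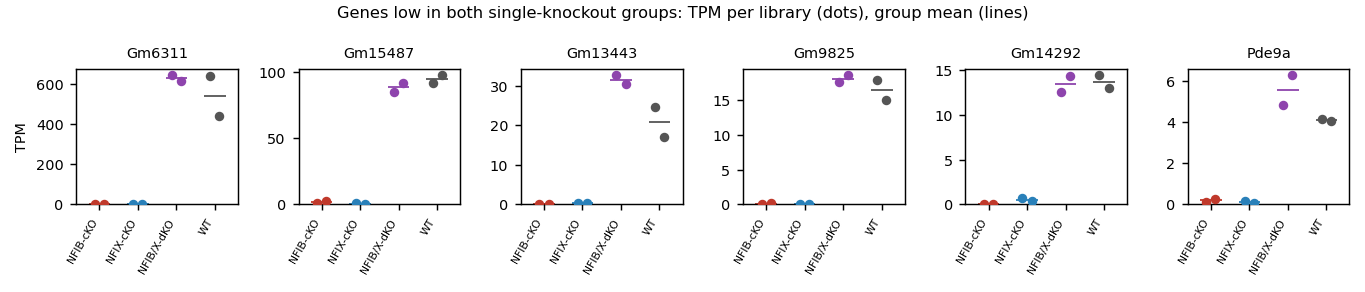
TPM in each library (dots) and group mean (lines) for 6 of the 7 genes low in both single-knockout groups, with NFIB-cKO, NFIX-cKO, NFIB/X-dKO and WT from left to right and each vertical axis starting at 0. For Gm6311 the NFIB-cKO and NFIX-cKO libraries lie near 0 and the NFIB/X-dKO and WT libraries between 443 and 645 TPM.

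Short RNA genes supplied 15 of the 111 calls, 7 higher and 8 lower. The 5 genes called higher in NFIB-cKO than in WT, NFIX-cKO and NFIB/X-dKO alike were all of this kind (Gm25731, Gm22643, Mir7072, Mir7059 and Mir7655). All 5 read at most 0.08 TPM in the other 6 libraries and passed the filter on low values only through the NFIB-cKO libraries. Their passing these tests is therefore no independent support. The same limit holds for Mir6988, also called higher against WT. Some of the lower calls likewise reached 1 TPM only in the WT libraries and passed the filter through them alone. Mir7655 read 6.11 and 8.70 TPM in NFIB-cKO and 0.00 TPM in the other 6 libraries, but rested on 3 expected reads in NFIB-cKO 85 at an effective length of 8 bases. Of the 7 higher ones, 4 had 3 or fewer expected reads in that library (Mir7655, Mir7059, Mir7072 and Mir6988). Gm25731, with 47.1 expected reads in NFIB-cKO 85, read 18.04 and 14.6 TPM in NFIB-cKO and 0.00 and 0.08 TPM in WT (4.05 ± 0.21, adjusted p = 0.000772). The libraries were made from mRNA, so these values do not measure mature miRNAs.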

How the data were processed

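Per the submitters' processing notes, reads were processed with Bowtie2 2.2.9 and RSEM 1.2.30 on mouse build mm10 (GRCm38). The annotation release is not given in the sources used here. As TPM, the authors deposited values for 8 libraries in 1 table, in which 92 spike-in sequences were at 0 and left out and 0 columns were unmapped. For 5 libraries the authors also deposited expected counts with gene lengths and effective lengths in bases, which entered no test and were used only to give the reads behind a value in NFIB-cKO 85. The library kit was TruSeq mRNA, per the labels, and groups came from the titles.

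Genes reaching 1 TPM in 2 or more libraries (15434 of 46517) were tested with limma 3.58.1 (R 4.3.3) on log2(TPM + 1), pseudocount 1, with a variance trend and Benjamini-Hochberg adjustment. The 4 groups shared 1 fit (4 residual and 3.10 prior degrees of freedom). WT 82 alone was tested in a fit of genotype by animal number series (2 and 2.25). TPM keeps no depth, so no count test was run and no interval was computed. The steps were tested on simulated data. GENCODE M21 gave gene types and coordinates (15361 tested genes had an entry) and promoters from RefSeq.

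Genes were named by a rule: the 15 largest rises and falls among called genes whose higher group averaged 5 TPM or more and whose libraries were separated, skipping predicted, pseudogene and short RNA genes; the NFI genes, Esr1 and 7 bulge genes; per list described, the 3 members of lowest p; and genes past a direct comparison or the WT 82 comparison. Far2, Col4a5, Mir6988, the cell type markers printed as values and the Krt24 promoter were added after their values were seen. The members, gene lists and tests were chosen with earlier results of these data known. Alternatives were another pseudocount, other filters, scaling, other sets of libraries and a term for animal number series. The results of 2 genes named by the rule are not reported here.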

Additional observations from a re-analysis of the deposited data

How the results depend on the processing

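The 111 calls of NFIB-cKO against WT were 29 with no filter on low values, 200 with animal number series as a covariate and 45 against WT 82 alone, and from 11 (without NFIB-cKO 81) to 157 (without NFIX-cKO 88) with 1 library left out. The count was 12 without NFIB-cKO 85, 38 without WT 34, 37 without NFIB/X-dKO 33 and 34 without NFIB/X-dKO 36; a lone sample is then assumed to vary like the other groups. A pseudocount of 0.1 gave 97, a filter at 5 TPM 91, median-of-ratios scaling 99 and the 4 libraries alone 118. Against NFIX-cKO the count of 19 was 10 at 5 TPM and ran from 2 to 38 with 1 library left out, and scaling moved the share of higher calls to 33.3%, from 47.4%. Against NFIB/X-dKO the count of 35 was 23 with a pseudocount of 0.1, 71 with no filter, 17 at 5 TPM, 3086 with those 4 libraries alone and 22 with the series covariate, and ran from 8 to 74 with 1 library left out. Scaling moved the median of all genes in that comparison to -0.004376, from -0.1503. Causes were not tested. Of 64 called genes named, 9 passed under every alternative that gave them a value (Esr1, Mest, Piezo2, Gm6311, Gm13443, Gm14292, Gm9825, Gm25731 and Mir7072), and 48 of 58 lost their call without NFIB-cKO 81 and 48 of 58 without NFIB-cKO 85. Of these 9, Gm25731 had a value in 13 of 15 alternatives and Mir7072 in 12. Without NFIB-cKO 81 or 85 neither had one, since only these 2 libraries brought them past the filter on low values. Their calls were therefore not put to that check. Of 30 uncalled genes named, 14 passed under some alternative. The sign changed, in uncalled genes, for Nfic (0.1048 with the series covariate, 0.06763 against WT 82 alone, and from -0.2842 to 0.06763 with 1 library left out), Nfia (-0.00656 to 0.2604) and Krt15 (-0.4813 to 0.07667). No paired analysis was possible because the groups share no animal numbers. The depth of 3 of the 4 libraries is unknown, which limits what weakly expressed genes can show.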
